A study of Mus musculus with 21 samples.

Results

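The 30 genes described here mark the oligodendrocyte lineage or build myelin. They were picked by symbol and matched to the gene identifiers of a table of 55401 mouse genes, 37538 of which had at least 1 count. All 30 were found, and all 30 passed the filter on low counts in each fit, whichever group was high. By the stage each is known for, 23 are genes of the mature, myelinating cell, 3 are transcription factors carried through the lineage (Olig1, Olig2 and Sox10), 2 mark the newly formed oligodendrocyte (Bcas1 and Enpp6) and 2 mark the progenitor (Pdgfra and Cspg4).

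Poly(A) RNA from the pulverized forebrains of 21 mice was sequenced, 1 library per mouse. E2H, E3H and E4H mice (3 each) were homozygous for human APOE2, APOE3 or APOE4 placed at the mouse Apoe locus on a C57BL6 background, and were killed at 9–10 months. PS/E4H, PS/E3H and PS/E2H mice (4 each) carried the same APOE alleles together with 1 copy of the PS19 transgene, which drives human tau with the P301S mutation from the mouse prion protein promoter. The PS19 line was kept on a B6/C3H background, and its mice were killed when the hindlimbs became paralysed. The tau transgene, paralysis, the age at death and the B6/C3H share therefore cannot be told apart in any PS19 over parental comparison.

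Oligodendrocytes wrap axons in myelin, a stack of compacted membrane that speeds conduction and feeds the axon beneath it. Progenitors that carry the PDGF receptor stay in the adult forebrain, divide slowly, and on receiving the right signals leave the cycle, pass through a short premyelinating stage and switch on the structural genes of myelin under SOX10 and MYRF. Most newly formed cells die unless they engage an axon. In bulk RNA, fewer cells of a type and less RNA per cell cannot be told apart.

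Library totals ran from 59265459 to 75932183 counts, and mitochondrial genes held 7.25% to 10.9% of them. Values are given as CPM, counts scaled to library size after TMM normalization. The mouse Apoe gene, replaced in all groups, was read at 9.83 to 16.5 CPM. Prnp, whose promoter is in the transgene, was read at 1391 to 1928 CPM in PS19 mice and at 818 to 1072 CPM in parental mice, so the libraries separated by their tau label, while mouse Mapt, at 420.2 to 504 CPM and 425 to 505 CPM, did not separate them. Ddx3y, a gene of the Y chromosome, was read at 43.0 to 65.3 CPM in 4 mice (E4H mouse 3, PS/E2H mouse 2, and PS/E4H mice 1 and 4) and at no more than 0.341 CPM in the other 17, where Xist was high instead. The labels give no sex, and the study's methods describe a mainly male cohort, which is the opposite of what these reads show. 1 library stood apart: PS/E2H mouse 4 was the lowest of the 21 mice for 15 of the 30 genes. The share of all genes for which it was the lowest is not given here, so this count does not set the 30 genes apart from others. Values without it are given for the comparisons that include it.

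Lengths differ between genes, so levels of different genes were compared in FPKM, the authors' fragments per kilobase of exon and per library size. Mbp, which glues the cytoplasmic faces of the myelin membrane together, had the highest mean, 358 FPKM (range 251 to 502). It was followed by Mobp, another small basic myelin protein, at 155 FPKM (range 115 to 212), and Trf, the iron carrier transferrin, at 155 FPKM (range 83.96 to 250.2). Cnp, an enzyme of non-compact myelin, came next at 99.7 FPKM (range 70.5 to 135). Only Mbp kept clear of the gene below it in that order, since each of the other 28 neighbouring pairs overlapped in their ranges over the 21 mice. The transcription factors lay lower, with Olig1 at 39.1 FPKM (range 33.1 to 46.3), Sox10 at 14.1 FPKM (range 6.43 to 19.5), Olig2 at 10.1 FPKM (range 7.51 to 13.1) and Myrf at 7.55 FPKM (range 5.56 to 10.6). Progenitor genes were near the bottom: Pdgfra stood at 4.94 FPKM (range 3.75 to 5.92) and Cspg4, a surface proteoglycan of progenitors and pericytes, was last at 1.15 FPKM (range 0.693 to 1.62).

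**Figure D1:**
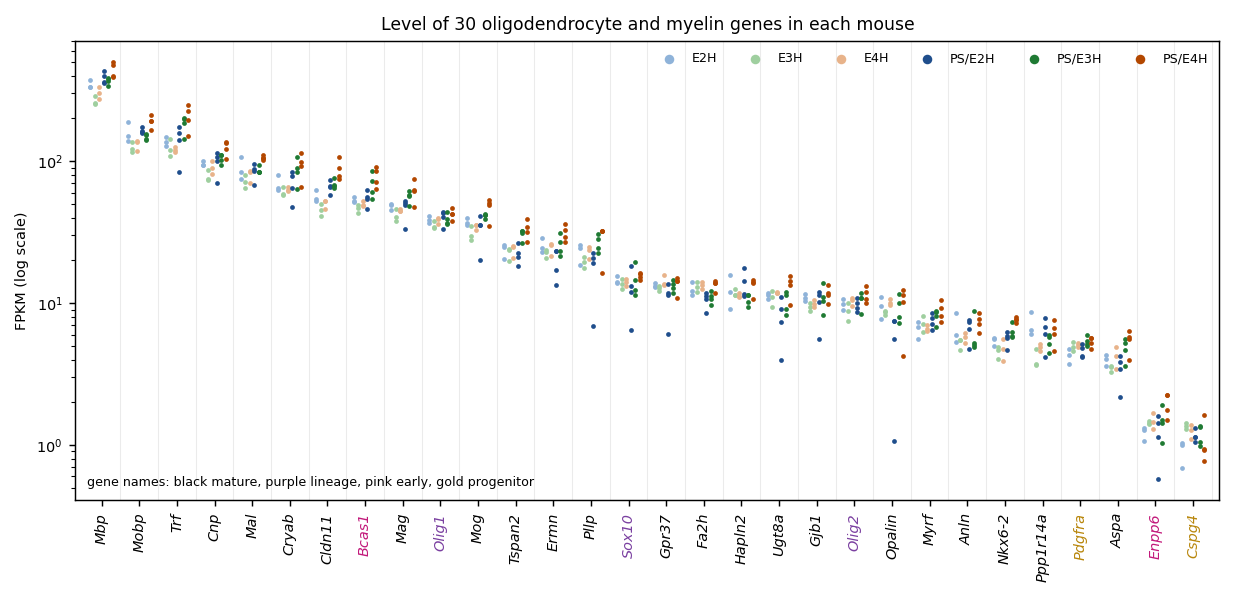
FPKM (log axis) of the 30 genes in each of the 21 mice, 1 point per mouse, coloured by group, with genes ordered by their mean over all mice and their names coloured by stage. Mbp lies above all others at 251 to 502 FPKM, and the lowest points of Opalin, Pllp and Enpp6 belong to PS/E2H mouse 4.

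Promoters of Mobp, Cnp and Cldn11, which were called higher in PS19 mice in the comparisons that follow, and of Opalin, which was not, are shown because SOX10 drives many of these genes through a short core, ACAAAG, on either strand. Windows of 250 bases before the start were taken from RefSeq (GRCm38.p6) for the 22 of 30 members that had one. The core lay in 6 of the 22 (Cnp, Gjb1, Mag, Mobp, Opalin and Tspan2), against 18.6% of all genes and 16.5% of 32851 windows. The MYRF core CTGGNAC lay in another set of 6 (Cnp, Gjb1, Hapln2, Mag, Mog and Ppp1r14a), against 17.9% of genes and 16.1% of windows, and the glucocorticoid receptor core AGAACA in 2 (Gjb1 and Tspan2), against 18.2% and 16.1%, searched on both strands, with matches to different motifs counted separately even where they overlapped. Mobp held 6 SOX cores, as many as no other window of the 32851, whereas Cldn11 held none. Below are Mobp (chr9:120149492-120149741, plus strand), Cnp (chr11:100574689-100574938, plus strand), Cldn11 (chr3:31149670-31149919, plus strand) and Opalin (chr19:41077114-41077363, minus strand), 5′ to 3′ toward the start, with ACAAAG or its complement CTTTGT in capitals. A match is a string of letters and says nothing about binding here.
Mobp: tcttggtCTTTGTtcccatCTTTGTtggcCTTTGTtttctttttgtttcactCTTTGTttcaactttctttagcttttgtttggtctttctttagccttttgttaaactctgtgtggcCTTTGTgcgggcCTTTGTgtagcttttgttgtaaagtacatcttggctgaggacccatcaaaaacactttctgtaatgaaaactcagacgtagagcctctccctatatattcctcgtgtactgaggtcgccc
Cnp: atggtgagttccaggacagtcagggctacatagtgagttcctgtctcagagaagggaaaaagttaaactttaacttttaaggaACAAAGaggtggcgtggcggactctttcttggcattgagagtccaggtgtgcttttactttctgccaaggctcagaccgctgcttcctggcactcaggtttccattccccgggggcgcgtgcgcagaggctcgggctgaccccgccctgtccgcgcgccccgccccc
Cldn11: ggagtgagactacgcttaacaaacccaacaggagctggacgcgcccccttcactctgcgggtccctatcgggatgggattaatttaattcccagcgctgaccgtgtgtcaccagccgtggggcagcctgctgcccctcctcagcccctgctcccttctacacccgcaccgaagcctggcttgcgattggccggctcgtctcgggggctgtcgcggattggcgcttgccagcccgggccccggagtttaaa
Opalin: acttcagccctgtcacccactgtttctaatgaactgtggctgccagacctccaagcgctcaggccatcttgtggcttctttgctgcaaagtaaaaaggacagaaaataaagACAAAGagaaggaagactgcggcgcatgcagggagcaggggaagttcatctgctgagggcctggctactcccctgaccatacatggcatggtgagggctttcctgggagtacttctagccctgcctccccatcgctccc

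The first question was whether these genes differ between PS19 mice and the parental mice of the same APOE line. In the APOE3 and APOE4 lines, genes of mature myelin were higher in PS19 mice, among them Cldn11 (log2 fold changes of 0.63 ± 0.08 and 0.81 ± 0.12), Trf (0.57 ± 0.11 and 0.77 ± 0.14) and Mbp (0.50 ± 0.07 and 0.55 ± 0.11). Bcas1 was higher as well, while Enpp6, the other gene of the newly formed cell, and the progenitor genes were not called in any line. Of the 30 genes, 14 were called higher in PS/E3H over E3H mice and 15 in PS/E4H over E4H mice (edgeR quasi-likelihood test, Benjamini-Hochberg adjusted p under 0.05 over all genes tested), and none was called lower. The 2 lines shared 12 of these genes, 12 of the 14 and 12 of the 15, with Aspa and Pllp called in the APOE3 line and Anln, Ermn and Myrf in the APOE4 line besides. Among all genes tested, 3.35% were called higher and 2.02% lower in the APOE3 line, and 8.62% higher and 6.98% lower in the APOE4 line. No member was called in PS/E2H over E2H mice by edgeR (0.752% of all genes) or by DESeq2 (3.24%), and 3 had an unadjusted p under 0.05 in edgeR (10.7%). No call in any line reached a 2-fold difference, where 0.485%, 1.32% and 2.98% of all genes did in the APOE2, APOE3 and APOE4 lines. The median log2 fold change of the 23 mature genes was 0.42 in the APOE3 line, 0.41 in the APOE4 line and -0.09 in the APOE2 line, against medians over all genes within 0.02 of 0. Fold changes were positive for 20, 21 and 7 of the 23, respectively, where 49.4%, 49.7% and 47.3% of all genes were positive.

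The number of calls depended on single mice, mostly parental ones. In the APOE3 line the 14 calls became 2 without E3H mouse 1 or without E3H mouse 3, 7 without E3H mouse 2 or PS/E3H mouse 4, 8 without PS/E3H mouse 2 and 9 without PS/E3H mouse 3. In the APOE4 line the 15 became 8, 6 and 9 without E4H mouse 1, 2 and 3. The median of the mature genes moved less, between 0.35 and 0.46 and between 0.37 and 0.49 over those fits. Calls over all genes in those fits are not given here, so a loss of power over all genes is not set apart from a change in the members. With the 4 mice that read Ddx3y left out, 7 members were called in the APOE4 line (Bcas1, Mal, Mobp, Anln, Cldn11, Nkx6-2 and Mbp), with 4 mice in the fit and a mature median of 0.38, and still none in the APOE2 line. Over all genes, 1990 of 20753 were then called in the APOE4 line, against 3252 of 20844 with all its mice. In the APOE2 line it was 131 of 20446, against 155 of 20617.

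**Figure D2:**
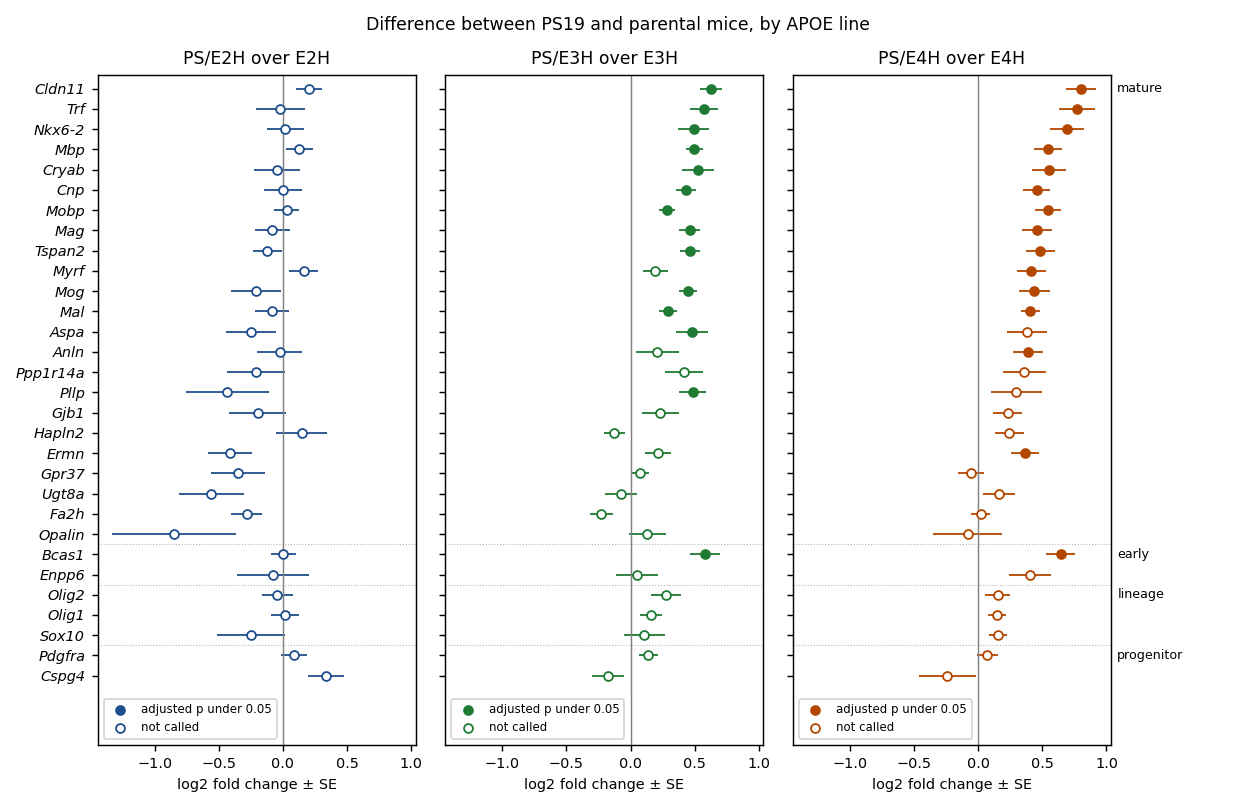
Log2 fold change of each of the 30 genes between PS19 and parental mice of the same APOE line, with SE, from the edgeR fit of that line (PS/E2H over E2H, PS/E3H over E3H, PS/E4H over E4H). Filled points have an adjusted p under 0.05: 14 in the APOE3 line, 15 in the APOE4 line and none in the APOE2 line.

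Of the proteins that build the sheath, Mbp read 3043, 3729.6 and 3075 CPM in the E2H mice, 2283, 2503 and 2267 CPM in the E3H mice and 2755, 2486 and 3052 CPM in the E4H mice. In the PS19 groups it read 4027, 3747, 3289 and 3333 CPM in the PS/E2H mice, 3194, 3467, 3352 and 3356 CPM in the PS/E3H mice and 4319, 4699, 3713 and 3496 CPM in the PS/E4H mice. All PS/E3H mice were above all E3H mice and all PS/E4H mice above all E4H mice, while the APOE2 groups overlapped. Its log2 fold changes were 0.50 ± 0.07, adjusted p = 0.00438, in the APOE3 line and 0.55 ± 0.11, adjusted p = 0.00958, in the APOE4 line, and 13 of the 23 mature genes separated the groups upward like this in each of these lines, against 10.5% and 15.0% of all genes. Mobp was measured at 1392, 1121 and 1115 CPM in the E2H mice, 847, 951 and 863 CPM in the E3H mice and 1026, 874 and 1014 CPM in the E4H mice. PS19 mice had 1208, 1235, 1194 and 1319.6 CPM in the PS/E2H mice, 1081, 1129, 1082 and 1060.2 CPM in the PS/E3H mice and 1419, 1605, 1468 and 1189 CPM in the PS/E4H mice. Again the APOE3 and APOE4 groups did not overlap, with log2 fold changes of 0.28 ± 0.06 (adjusted p = 0.0327) and 0.54 ± 0.10 (adjusted p = 0.00707).

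Cldn11, the claudin that seals the layers of myelin with tight junction strands, showed the highest log2 fold change of the 30 in both the APOE3 and the APOE4 line. Its values were 127, 119.6 and 108 CPM in the E2H mice, 90.6, 95.9 and 80.1 CPM in the E3H mice and 106, 92.4 and 106 CPM in the E4H mice. They were 137, 155, 134 and 120.2 CPM in the PS/E2H mice, 134, 135, 130.4 and 155 CPM in the PS/E3H mice and 216, 184, 157 and 154 CPM in the PS/E4H mice. No PS/E3H or PS/E4H mouse fell to the level of its parental group. The log2 fold changes were 0.63 ± 0.08, adjusted p = 0.00450, and 0.81 ± 0.12, adjusted p = 0.00218, and it kept its call in each of the 7 fits without 1 mouse in either line.

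Proteolipids and a tetraspanin of the sheath follow. Mal, which sorts lipid rafts to myelin, gave 320.4, 244 and 252 CPM in the E2H mice, 194, 226 and 205 CPM in the E3H mice and 252, 209.7 and 253 CPM in the E4H mice. PS19 values were 271, 294, 254 and 211 CPM in the PS/E2H mice, 259, 248, 271 and 251 CPM in the PS/E3H mice and 315, 320.3, 313 and 322 CPM in the PS/E4H mice. The APOE3 and APOE4 groups were separate, at log2 fold changes of 0.29 ± 0.07 (adjusted p = 0.0392) and 0.41 ± 0.07 (adjusted p = 0.00615). Pllp, the proteolipid plasmolipin, gave 41.97, 63.6 and 55.3 CPM in the E2H mice, 39.8, 44.8 and 42.1 CPM in the E3H mice and 52.6, 45.6 and 55.5 CPM in the E4H mice. In PS19 mice it gave 44.5, 48.1, 50.8 and 15.8 CPM in the PS/E2H mice, 57.01, 62.7, 49.1 and 69.3 CPM in the PS/E3H mice and 72.04, 73.6, 37.5 and 70.00 CPM in the PS/E4H mice. PS/E3H mice lay above E3H mice (0.48 ± 0.11, adjusted p = 0.0315), but PS/E4H mouse 3 and PS/E2H mouse 4 were below all parental mice and Pllp was not called in those lines. Tspan2, a tetraspanin, had 132, 115 and 129 CPM in the E2H mice, 102, 118 and 117 CPM in the E3H mice and 127, 106 and 129 CPM in the E4H mice. The PS19 groups had 118, 113, 135 and 96.7 CPM in the PS/E2H mice, 139.6, 162, 159.8 and 160.5 CPM in the PS/E3H mice and 200.4, 166, 143 and 171 CPM in the PS/E4H mice. Its log2 fold changes were 0.46 ± 0.08 in the APOE3 line and 0.49 ± 0.11 in the APOE4 line (adjusted p = 0.0127 and 0.0166), and neither pair of groups overlapped.

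Adhesion proteins mark opposite faces of the sheath. Mag, on the inner face next to the axon, had 215, 220.1 and 222 CPM in the E2H mice, 167, 191 and 171 CPM in the E3H mice and 199.8, 196 and 195 CPM in the E4H mice. It had 228, 225, 229 and 149.8 CPM in the PS/E2H mice, 217, 264, 242 and 254 CPM in the PS/E3H mice and 329, 281, 213 and 264 CPM in the PS/E4H mice. PS/E2H mouse 4 was the lowest mouse of all, and both other PS19 groups were above their parental groups (0.46 ± 0.08, adjusted p = 0.0139, and 0.46 ± 0.12, adjusted p = 0.0278). Mog, on the outer face, had 74.01, 72.01 and 68.00 CPM in the E2H mice, 51.3, 60.5 and 52.5 CPM in the E3H mice and 65.4, 60.2 and 65.6 CPM in the E4H mice. Among PS19 mice it had 66.9, 77.9, 65.4 and 37.9 CPM in the PS/E2H mice, 73.7, 74.8, 75.6 and 76.9 CPM in the PS/E3H mice and 97.9, 95.9, 65.6 and 87.2 CPM in the PS/E4H mice. Its log2 fold change was 0.45 ± 0.07 in the APOE3 line (adjusted p = 0.0112) and 0.44 ± 0.12 in the APOE4 line (adjusted p = 0.0357), again without overlap, and -0.21 ± 0.20 in the APOE2 line (adjusted p = 0.796).

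Enzymes and carriers of the myelinating cell came out unevenly. Cnp read 372, 434 and 371 CPM in the E2H mice, 294, 321 and 280.3 CPM in the E3H mice and 348, 317 and 395 CPM in the E4H mice. Its PS19 values were 435, 461, 393 and 285 CPM in the PS/E2H mice, 377, 427, 386 and 434 CPM in the PS/E3H mice and 531, 536, 417 and 462 CPM in the PS/E4H mice. It was called in the APOE3 line (0.43 ± 0.08, adjusted p = 0.0136) and in the APOE4 line (0.46 ± 0.10, adjusted p = 0.0161). Aspa, which frees acetate from N-acetylaspartate for lipid synthesis, read 23.3, 30.3 and 26.2 CPM in the E2H mice, 21.01, 22.01 and 22.05 CPM in the E3H mice and 26.9, 22.02 and 31.3 CPM in the E4H mice. In PS19 mice the readings were 25.5, 22.8, 27.1 and 14.5 CPM in the PS/E2H mice, 23.8, 35.5, 32.6 and 30.04 CPM in the PS/E3H mice and 35.9, 41.5, 26.4 and 35.9 CPM in the PS/E4H mice. It was called in the APOE3 line alone of the 3 lines (0.48 ± 0.12, adjusted p = 0.0485), and a similar log2 fold change in the APOE4 line had a wider error (0.38 ± 0.16, adjusted p = 0.131). By contrast Ugt8a and Fa2h, which make and hydroxylate the galactolipids of myelin, were called in no line: Ugt8a had log2 fold changes of -0.56 ± 0.25, -0.07 ± 0.12 and 0.16 ± 0.13 in the APOE2, APOE3 and APOE4 lines, and Fa2h had -0.28 ± 0.12, -0.23 ± 0.09 and 0.02 ± 0.08.

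Trf and Cryab are not made by oligodendrocytes alone. Trf read 534, 506 and 496 CPM in the E2H mice, 389.6, 487 and 415 CPM in the E3H mice and 450.3, 416 and 430.4 CPM in the E4H mice. In PS19 mice it read 577, 519, 621 and 309.98 CPM in the PS/E2H mice, 525, 693, 694 and 663 CPM in the PS/E3H mice and 895, 828, 557 and 679 CPM in the PS/E4H mice. The APOE3 and APOE4 groups were apart, at 0.57 ± 0.11 (adjusted p = 0.0191) and 0.77 ± 0.14 (adjusted p = 0.00628). Choroid plexus also makes transferrin, and its 6 markers summed to 446 to 767 CPM in parental and 419 to 1227 CPM in PS19 mice. No marker of the list was called in any single line. In the fit over all 21 mice, 3 of the 6 markers were called higher, against 11.4% of all genes. Their part in the Trf result was not tested. Cryab, a small heat shock protein of oligodendrocytes and reactive astrocytes, read 100.1, 141 and 104 CPM in the E2H mice, 93.1, 99.7 and 88.5 CPM in the E3H mice and 99.2, 98.5 and 104 CPM in the E4H mice. PS19 mice read 129, 108, 132 and 78.1 CPM in the PS/E2H mice, 105, 167, 138 and 134 CPM in the PS/E3H mice and 157, 149.8, 109 and 177 CPM in the PS/E4H mice. It was called in both lines (0.53 ± 0.13, adjusted p = 0.0409, and 0.55 ± 0.13, adjusted p = 0.0218). The 8 astrocyte markers summed to 2761 to 3313 CPM in parental and 4247 to 6289 CPM in PS19 mice, and their part in the Cryab result was not tested.

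Transcription factors of the myelin programme were read next. Nkx6-2, a homeodomain factor of mature oligodendrocytes, read 11.6, 12.9 and 10.4 CPM in the E2H mice, 9.64, 9.64 and 8.05 CPM in the E3H mice and 9.73, 8.02 and 11.5 CPM in the E4H mice. Its readings in PS19 mice were 12.5, 13.4, 11.7 and 9.91 CPM in the PS/E2H mice, 12.4, 14.8, 11.5 and 13.02 CPM in the PS/E3H mice and 15.7, 16.8, 16.3 and 14.5 CPM in the PS/E4H mice. The APOE3 and APOE4 groups did not overlap (0.49 ± 0.12, adjusted p = 0.0439, and 0.69 ± 0.13, adjusted p = 0.00789). Myrf, without which oligodendrocytes do not turn on myelin genes, read 68.4, 56.5 and 63.2 CPM in the E2H mice, 57.8, 71.5 and 63.8 CPM in the E3H mice and 64.4, 60.5 and 58.8 CPM in the E4H mice. With the transgene it read 74.2, 68.3, 78.1 and 61.1 CPM in the PS/E2H mice, 64.2, 79.5, 77.4 and 75.8 CPM in the PS/E3H mice and 97.6, 87.9, 69.7 and 72.95 CPM in the PS/E4H mice. It was called in the APOE4 line (0.42 ± 0.11, adjusted p = 0.0301) and not in the APOE3 line (0.19 ± 0.09, adjusted p = 0.272).

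Ermn and Anln act on the cytoskeleton of the sheath. Ermn, a late cytoskeletal protein, read 113, 97.97 and 96.6 CPM in the E2H mice, 80.9, 85.8 and 89.4 CPM in the E3H mice and 102, 84.1 and 99.9 CPM in the E4H mice. PS19 groups read 93.5, 69.4, 91.5 and 54.3 CPM in the PS/E2H mice, 86.7, 103, 119 and 91.2 CPM in the PS/E3H mice and 128, 144, 109 and 111 CPM in the PS/E4H mice. All PS/E4H mice exceeded all E4H mice (0.36 ± 0.11, adjusted p = 0.0449), PS/E3H mice overlapped E3H mice (0.22 ± 0.10, adjusted p = 0.258), and PS/E2H mice all lay below E2H mice (-0.41 ± 0.17, adjusted p = 0.416). Anln, the anillin that scaffolds septin filaments in myelin, was called in the APOE4 line (0.39 ± 0.12, adjusted p = 0.0495) although the groups overlapped.

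Mature genes called in no line were Opalin, Ugt8a, Fa2h, Gjb1, Gpr37, Hapln2 and Ppp1r14a. Opalin, a glycoprotein found in central myelin, read 24.9, 38.6 and 30.6 CPM in the E2H mice, 26.3, 26.1 and 26.9 CPM in the E3H mice and 31.5, 30.6 and 33.9 CPM in the E4H mice. In PS19 mice it read 18.2, 24.7, 23.6 and 3.49 CPM in the PS/E2H mice, 26.2, 36.2, 22.01 and 32.1 CPM in the PS/E3H mice and 38.99, 33.3, 13.9 and 35.3 CPM in the PS/E4H mice. PS/E2H mice were all below E2H mice, with mouse 4 far below the others. Ermn, Ugt8a and Fa2h also separated the APOE2 groups downward, which makes 4 of the 23 mature genes (5.05% of all genes did), and none of the 4 was called. For Opalin the log2 fold change was -0.85 ± 0.48 (adjusted p = 0.601), against 0.13 ± 0.15 and -0.08 ± 0.27 in the APOE3 and APOE4 lines. Gjb1 is a gap junction connexin and Gpr37 a receptor that holds back late maturation. Their log2 fold changes in the APOE3 and APOE4 lines were 0.23 ± 0.14 and 0.23 ± 0.11 for Gjb1 and 0.07 ± 0.07 and -0.05 ± 0.10 for Gpr37. Hapln2, a link protein of the matrix at nodes of Ranvier, had -0.13 ± 0.08 and 0.24 ± 0.12, and Ppp1r14a, an inhibitor of a protein phosphatase, had 0.42 ± 0.15 and 0.36 ± 0.17.

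**Figure D3:**
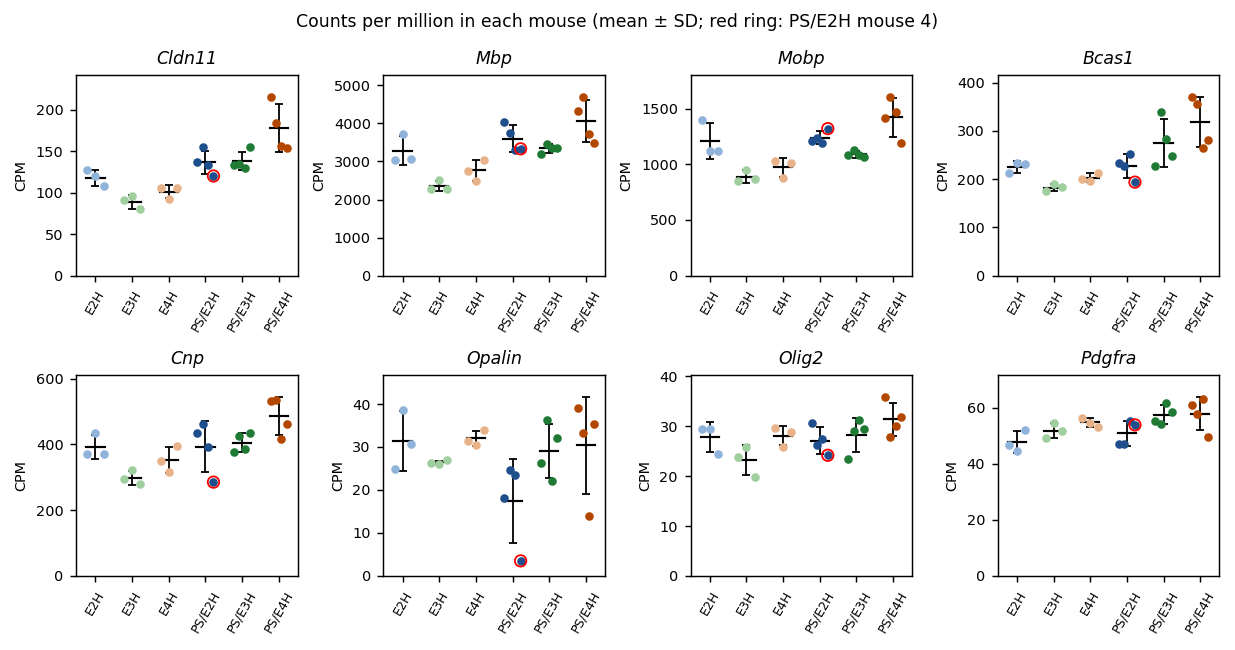
CPM of Cldn11, Mbp, Mobp, Bcas1, Cnp, Opalin, Olig2 and Pdgfra in each mouse, with the mean and SD of each group (3 parental or 4 PS19 mice). PS/E3H and PS/E4H mice lie above their parental groups for Cldn11, Mbp, Mobp, Bcas1 and Cnp, the groups overlap for Olig2 and Pdgfra, and PS/E2H mouse 4 (ringed) is far down for Opalin at 3.49 CPM.

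Earlier stages were then set apart. Bcas1, which marks oligodendrocytes as they begin to myelinate, read 212, 233 and 231 CPM in the E2H mice, 175, 189 and 183 CPM in the E3H mice and 199.9, 195 and 213 CPM in the E4H mice. In PS19 mice it read 234, 227, 253 and 194 CPM in the PS/E2H mice, 227, 339.6, 284 and 249 CPM in the PS/E3H mice and 370.4, 355, 265 and 282 CPM in the PS/E4H mice. It was the only gene outside the mature list to be called: log2 fold changes were 0.58 ± 0.12, adjusted p = 0.0241, in the APOE3 line, 0.64 ± 0.12, adjusted p = 0.00599, in the APOE4 line and 0.00 ± 0.10, adjusted p = 0.995, in the APOE2 line. Enpp6, a choline phosphodiesterase that peaks in newly formed cells, was not called in any line. Its values were 8.94, 8.20 and 9.31 CPM in the E2H mice, 9.64, 9.73 and 9.64 CPM in the E3H mice and 10.1, 8.96 and 11.6 CPM in the E4H mice. With the transgene they were 10.2, 8.25, 11.1 and 4.11 CPM in the PS/E2H mice, 7.41, 10.2, 12.7 and 10.04 CPM in the PS/E3H mice and 15.5, 16.05, 10.7 and 11.98 CPM in the PS/E4H mice. The groups overlapped in each line, and the log2 fold change was 0.40 ± 0.16, adjusted p = 0.121, in the APOE4 line and 0.05 ± 0.16, adjusted p = 0.905, in the APOE3 line.

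Olig2, needed to specify the lineage, read 29.6, 29.5 and 24.5 CPM in the E2H mice, 23.9, 25.8 and 19.8 CPM in the E3H mice and 29.6, 25.9 and 28.8 CPM in the E4H mice. PS19 mice had 30.7, 26.3, 27.4 and 24.2 CPM in the PS/E2H mice, 23.5, 29.02, 31.2 and 29.5 CPM in the PS/E3H mice and 35.9, 27.9, 30.03 and 31.8 CPM in the PS/E4H mice. Log2 fold changes were -0.04 ± 0.12, 0.28 ± 0.12 and 0.15 ± 0.10 in the APOE2, APOE3 and APOE4 lines, none of them called. Olig1 had 0.02 ± 0.11, 0.16 ± 0.08 and 0.15 ± 0.07, and Sox10 had -0.25 ± 0.27, 0.11 ± 0.16 and 0.16 ± 0.07. The Sox10 values did not overlap in the APOE4 line, yet the adjusted p was 0.161.

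Pdgfra, the receptor through which PDGF keeps progenitors dividing, read 46.7, 44.6 and 52.1 CPM in the E2H mice, 49.2, 54.6 and 51.7 CPM in the E3H mice and 56.5, 54.7 and 53.1 CPM in the E4H mice. In PS19 mice the values were 47.1, 47.1, 55.3 and 53.9 CPM in the PS/E2H mice, 55.3, 54.4, 61.8 and 58.4 CPM in the PS/E3H mice and 60.9, 57.9, 63.1 and 49.6 CPM in the PS/E4H mice. The groups overlapped in all 3 lines, and the log2 fold changes were 0.08 ± 0.10, 0.14 ± 0.07 and 0.07 ± 0.08. Cspg4 read 13.04, 9.84 and 13.4 CPM in the E2H mice, 17.5, 15.7 and 17.8 CPM in the E3H mice and 17.8, 16.5 and 14.3 CPM in the E4H mice. Its PS19 readings were 15.2, 15.3, 16.9 and 14.1 CPM in the PS/E2H mice, 13.2, 17.3, 13.1 and 17.4 CPM in the PS/E3H mice and 20.9, 12.4, 12.3 and 9.67 CPM in the PS/E4H mice. Its log2 fold changes were 0.34 ± 0.14, -0.17 ± 0.13 and -0.24 ± 0.22, and in the APOE2 line all PS19 mice lay above all parental mice without a call (adjusted p = 0.436). Differences within about 2 SE of these values remain possible for both genes.

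A fit over all 21 mice with APOE line and tau as terms gave 1 tau effect for each gene. It called 12 members higher and none lower, where 11.4% of all genes were called higher and 9.63% lower, and none of the 12 reached 2-fold (2.6% of all genes did). DESeq2 called the same 12 higher and Fa2h lower (-0.17 ± 0.06, adjusted p = 0.0394), where it called 24.7% of all genes. The 12 were Cldn11 (0.55 ± 0.08, adjusted p = 3.86e-05), Mbp (0.40 ± 0.07, adjusted p = 0.000239), Bcas1 (0.41 ± 0.09, adjusted p = 0.00249), Mobp (0.29 ± 0.07, adjusted p = 0.00352), Nkx6-2 (0.40 ± 0.10, adjusted p = 0.00364), Myrf (0.26 ± 0.07, adjusted p = 0.00665), and, with smaller log2 fold changes or wider errors, Trf, Cnp, Tspan2, Mag, Cryab and Mal at adjusted p = 0.0114 to 0.0413. Opalin had -0.26 ± 0.24, adjusted p = 0.490, Pdgfra 0.11 ± 0.05, adjusted p = 0.124, and Cspg4 -0.02 ± 0.12, adjusted p = 0.932. The median over the mature genes was 0.21. Without PS/E2H mouse 4 the fit called 15 members, adding Mog, Olig1 and Aspa, with a median of 0.28. Without the 4 mice that read Ddx3y it called 6 (Bcas1, Mobp, Myrf, Cldn11, Nkx6-2 and Mbp), with a median of 0.22. With all 21 mice, 4806 of 22863 genes were called. Without PS/E2H mouse 4 it was 4992 genes, and without those 4 mice 3622 of 23603.

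The spread between mice was itself uneven. The median coefficient of variation of CPM over the 23 mature genes was 10.6%, 6.90% and 7.58% in E2H, E3H and E4H mice. With the transgene it was 22.3% in PS/E2H, 9.23% in PS/E3H and 15.9% in PS/E4H mice, and 8.73% in PS/E2H mice without mouse 4. Of the 30 genes, E3H mouse 3 and mouse 1 were the lowest of 21 mice for 5 and 4, and PS/E4H mouse 1 and mouse 2 the highest for 11 and 12. Summed over the mature genes, E3H mice held 5008 to 5599.8 CPM, E2H mice 6532 to 7315, E4H mice 5397 to 6355, PS/E2H mice 6330.2 to 7774, PS/E3H mice 6636 to 7398 and PS/E4H mice 7653 to 9642. The sums of the 2 progenitor genes overlapped between every PS19 group and its parental group, with 54.4 to 74.3 CPM over the parental and 59.3 to 81.7 CPM over the PS19 mice.

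**Figure D4:**
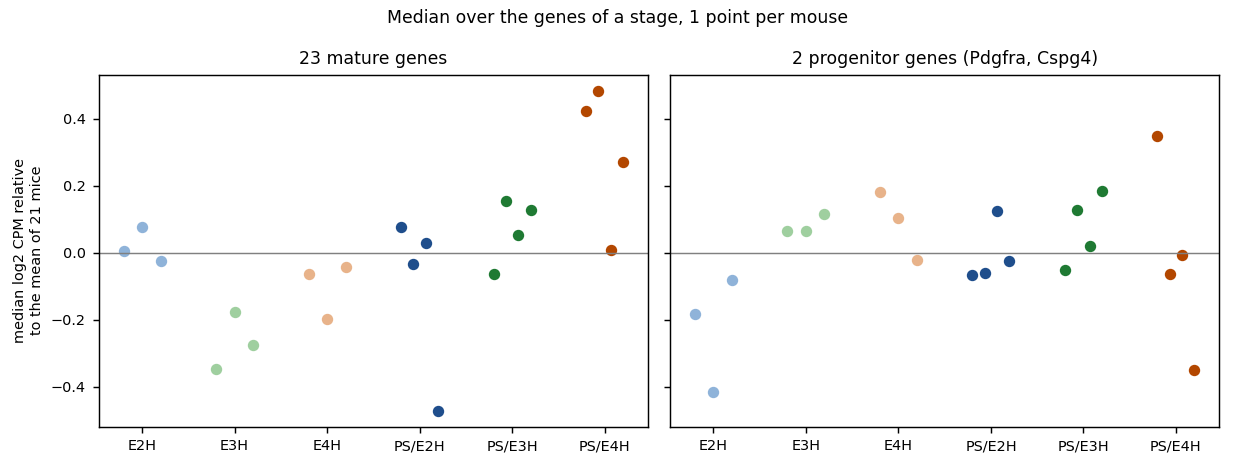
Median log2 CPM relative to the mean of the 21 mice, 1 point per mouse, over the 23 mature genes (left) and the 2 progenitor genes (right), by group. For the mature genes E3H mice lie below all E2H mice and overlap the E4H mice, PS/E4H mice reach highest, and PS/E2H mouse 4 is at -0.47, while for the progenitor genes PS19 and parental mice overlap.

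PS/E2H mouse 4 departed from its group for many of these genes and for genes of other cells. It was the lowest of the 21 mice for 15 of the 30 genes, the highest for 1 and within the range of the others for 14. Opalin read 3.49 CPM there against a mean of 22.2 CPM in the other 3 PS/E2H mice, a log2 difference of -2.62, and Pllp read 15.8 against 47.8 CPM. Sox10, the factor that keeps the lineage's identity, was at 21.8 against 48.6 CPM. Enpp6, Ugt8a, Gpr37 and Gjb1 differed by -1.23, -1.16, -0.98 and -0.97 on the log2 scale. The most abundant genes, Mbp at -0.14 and Mobp at 0.12, stayed within the range of the other mice, as did Anln at 0.32 and Pdgfra at 0.12. Hapln2 was the gene at its highest there, at 46.7 against 32.4 CPM. Of 24 other mature oligodendrocyte genes, 15 were also at their lowest in this mouse. Of 107 genes of the further lists, it was lowest for 10 and highest for 6. The shares of all genes for which it was lowest or highest are not given here. The lowest included, chosen after their values were seen, Fgf2, a growth factor for progenitors (0.455 against 11.2 CPM), and Il33, an alarmin (29.6 against 79.8 CPM). They also included the microglial Cx3cr1 and P2ry12 (35.5 against 75.7 and 18.01 against 38.05 CPM), the endothelial Tek and the pericyte gene Kcnj8. The highest included the endothelial Ly6c1 (58.4 against 38.7 CPM) and Apod, a gene that oligodendrocytes raise in disease (1231 against 485 CPM). All other microglial, endothelial and pericyte markers lay within the range of the other 20 mice, so the named genes do not stand for those cells. Of cerebellar genes, Gabra6 read 2.29 CPM against 0 in the other 3 and Cbln3 6.04 against 0.581 CPM. In the rest of the 21 mice Gabra6 reached 1.67 CPM, so it was highest in PS/E2H mouse 4, and Cbln3 reached 6.16 CPM. Hindbrain and cerebellar genes together summed to 11.9 CPM in PS/E2H mouse 4, to 13.1 CPM in PS/E3H mouse 2 and, next highest, to 6.10 CPM in E2H mouse 3. Their part in the oligodendrocyte values was not tested.

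A further list of 12 genes that glucocorticoids raise was added after the values of that mouse had been seen. The mouse held the highest value of 21 for 10 of the 12, with Fkbp5 at 189.7 CPM against a mean of 61.9 CPM and Cdkn1a at 148 against 41.2 CPM in the other 3. Because the list was chosen with this mouse in view, that count describes the mouse and is not a test. The list summed to 1238 CPM in this mouse and to 277 to 718 CPM in the other 20, and its part in the oligodendrocyte values was not tested. Leaving the mouse out of PS/E2H over E2H still gave no called member (smallest adjusted p = 0.375, 142 genes called) and a median over the mature genes of -0.01. The log2 fold changes became -0.51 ± 0.18 for Opalin, -0.34 ± 0.13 for Ugt8a, -0.28 ± 0.13 for Ermn, -0.20 ± 0.10 for Fa2h, -0.03 ± 0.10 for Mog and -0.03 ± 0.16 for Sox10. Values near 0 changed sign for 7 members, to 0.05 ± 0.08 for Mag, 0.15 ± 0.16 for Enpp6, 0.15 ± 0.10 for Trf, 0.09 ± 0.14 for Cryab, 0.01 ± 0.12 for Olig2 and -0.01 for both Hapln2 and Mobp. Bcas1, Olig1, Pdgfra and Cspg4 had 0.07 ± 0.09, 0.09 ± 0.10, 0.05 ± 0.11 and 0.37 ± 0.15.

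**Figure D5:**
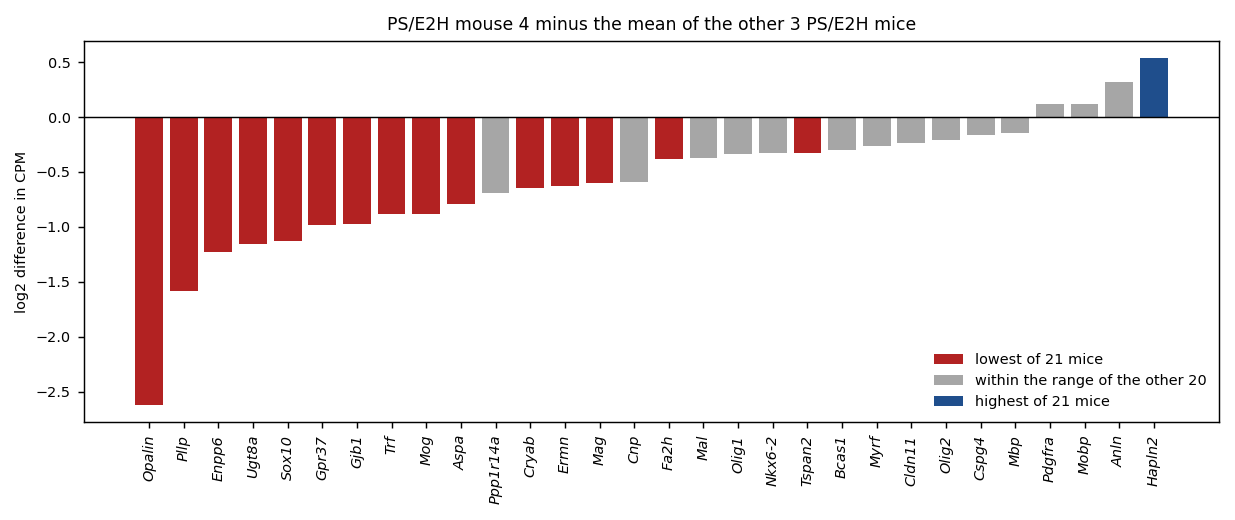
Log2 difference in CPM between PS/E2H mouse 4 and the mean of the other 3 PS/E2H mice for the 30 genes, as bars from 0, coloured by whether the mouse was the lowest, the highest or within the range of all 21 mice. Opalin is furthest down at -2.62 and Hapln2 furthest up at 0.54.

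Whether the tau-associated difference itself varied with APOE line was tested by 3 interaction fits. No gene tested was called by edgeR in any of them (0.0%), so none of the 30 was. For the APOE4 minus the APOE2 line, 15 members had an unadjusted p under 0.05 (10.1% of all genes), and the smallest adjusted p belonged to Bcas1 (0.64 ± 0.16, adjusted p = 0.293). Cldn11 had 0.60 ± 0.16 and Mobp 0.51 ± 0.15. For the APOE2 minus the APOE3 line, 17 members were under 0.05 unadjusted (5.72% of all genes), Bcas1 again at -0.57 ± 0.17, with no adjusted p of a member below 0.843. For the APOE4 minus the APOE3 line it was 1 member (3.81% of all genes). DESeq2 called 1 member for the APOE4 minus the APOE2 line (0.867% of all genes) and none for APOE2 minus APOE3 (0.044%) or APOE4 minus APOE3 (0.0312%). Without PS/E2H mouse 4, edgeR again called no member in either fit that includes the APOE2 line. Calls in the APOE3 and APOE4 lines and none in the APOE2 line are therefore not shown to differ.

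Without the tau transgene, the next question was whether APOE genotype alone moved these genes. None of the 30 was called by edgeR in E2H over E3H, E4H over E3H or E4H over E2H mice, where 0.178%, 0.162% and 0.216% of all genes were called. E2H mice nevertheless lay above E3H mice for most of them. The log2 fold change was positive for 22 of the 23 mature genes (48.6% of all genes), with a median of 0.31, and 19 of the 30 members had an unadjusted p under 0.05, against 14.1% of all genes. Mbp averaged 3283 ± 387 CPM (SD, n = 3) with APOE2 against 2351 ± 132 CPM (SD, n = 3) with APOE3, at 0.47 ± 0.10 on the log2 scale and an edgeR adjusted p of 0.188, the smallest among the members. Mobp averaged 1209 ± 158 and 887 ± 56.2 CPM, and Cldn11 118 ± 9.82 and 88.9 ± 8.03 CPM. The E2H and E3H groups did not overlap for 21 members, 19 of them higher in E2H mice (12.8% of all genes were) and 2 lower (10.5%). DESeq2 called 10 members, where it called 3.87% of all genes: Cnp, Bcas1, Mal, Mobp, Mag, Ppp1r14a, Cldn11, Mbp and Mog higher and Cspg4 lower.

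The 2 progenitor members had negative log2 fold changes in E2H over E3H mice, neither called by edgeR. Cspg4 averaged 12.1 ± 1.96 CPM with APOE2 against 17.01 ± 1.12 CPM with APOE3 (-0.50 ± 0.14, edgeR adjusted p = 0.232), and Pdgfra 47.8 ± 3.86 and 51.8 ± 2.70 CPM (-0.12 ± 0.09). Of 10 other progenitor genes, 5 were positive in that comparison, with a median of 0.02 and none called. The median of the mature genes was 0.16 in E4H over E3H and -0.15 in E4H over E2H mice, with 13 and 7 members at an unadjusted p under 0.05 (6.67% and 12.4% of all genes) and none called by DESeq2 (0.565% and 1.81%). By the sums given above, the mature levels of E3H mice lay below those of all E2H mice and overlapped those of E4H mice. Since the same E3H mice are the baseline of the PS/E3H comparison and the same E2H mice that of the PS/E2H comparison, comparisons that share these mice are not independent.

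Among PS19 mice, PS/E4H mice were higher than PS/E3H mice for all 23 mature genes by log2 fold change (50.3% of all genes), at a median of 0.24, but none was called (0.0197% of all genes were). Mobp had 0.38 ± 0.08 (adjusted p = 0.660), Cldn11 0.35 ± 0.11 and Mbp 0.28 ± 0.09, and 11 members had an unadjusted p under 0.05 (6.51% of all genes). PS/E4H over PS/E2H mice gave a median of 0.38 and 15 members at an unadjusted p under 0.05 (12.3% of all genes) with none called (0.119%), and a median of 0.25 without PS/E2H mouse 4. PS/E2H over PS/E3H mice gave -0.13 and, without that mouse, -0.05, with none called (0.113%) and 7 under 0.05 unadjusted (11.7%). DESeq2 called 2 members higher in PS/E4H over PS/E3H mice (Mal and Mobp), 4 higher in PS/E4H over PS/E2H mice (Bcas1, Aspa, Ermn and Tspan2) and 1 lower in PS/E2H over PS/E3H mice (Tspan2), where it called 0.163%, 1.34% and 0.719% of all genes. The paper reports a later median age at paralysis for PS/E3H than for PS/E4H or PS/E2H mice. Age at death therefore cannot be told apart from APOE line here. Ddx3y was read in PS/E2H mouse 2 and PS/E4H mice 1 and 4, and in no PS/E3H mouse. These comparisons were not fitted without those mice together, so the part of sex was not tested.

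Other genes of the lineage, from lists fixed by stage, were read for comparison in the fit over all 21 mice. Beside all of these counts stand the shares of all genes called in that fit, 11.4% higher and 9.63% lower. Of 24 other mature genes, 5 were called higher and 2 lower, with a median log2 fold change of 0.07. The 3 with the smallest adjusted p were Gsn, the actin-severing gelsolin (0.62 ± 0.06, adjusted p = 4.53e-07), Sirt2, a tubulin deacetylase of myelin (0.33 ± 0.04, adjusted p = 4.39e-06), and Plekhb1 (0.43 ± 0.08, adjusted p = 0.000520). Gsn read 55.1 to 71.5 CPM in parental and 77.8 to 114 CPM in PS19 mice, without overlap. Of 10 other progenitor genes, 3 were higher and 1 lower, against those shares of 11.4% and 9.63%. Vcan, a matrix proteoglycan, had 0.38 ± 0.08, Ptprz1, a receptor phosphatase that astrocytes also make, 0.21 ± 0.06 and Neu4, a sialidase, 0.39 ± 0.11.

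Of 8 other genes of the early, premyelinating stage, 4 were called higher and none lower in that fit, against 11.4% and 9.63% of all genes. 9630013A20Rik, a long non-coding RNA of newly formed oligodendrocytes, read 0.265 to 1.06 CPM in parental and 0.564 to 2.91 CPM in PS19 mice (1.55 ± 0.22, adjusted p = 2.39e-05). Bmp4, a ligand made by committed progenitors, read 1.01 to 3.03 and 2.58 to 5.22 CPM (0.90 ± 0.15, adjusted p = 0.000123), and Itpr2, a calcium channel of the same stage, 15.97 to 19.4 and 18.1 to 26.2 CPM (0.32 ± 0.06, adjusted p = 0.000488). The ranges of all 3 overlapped, and Bmp4 and Itpr2 are also made by other brain cells.

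Genes that oligodendrocytes raise in disease were called higher in 8 of 9 cases in the same fit. Beside this count and those below stand the shares of all genes, 11.4% called higher and 9.63% lower. C4b, a complement component, read 46.3 to 65.00 CPM in parental and 145 to 476 CPM in PS19 mice (2.34 ± 0.16), and the class I histocompatibility genes H2-D1 and H2-K1 had 1.30 ± 0.11 and 1.10 ± 0.10. Astrocytes and microglia make these too, and their markers rose with them. All 8 astrocyte markers were called higher (Gfap, 2.68 ± 0.14), as were 8 of 9 microglial markers, whose sum was 326 to 443 CPM in parental and 545 to 958 CPM in PS19 mice. Of 10 signals and brakes of the lineage, only the 3 with the smallest adjusted p are named. Igf1, a growth factor for oligodendrocytes that microglia also release, was higher (0.77 ± 0.14). Hes5, a Notch target that blocks differentiation (-0.73 ± 0.12), and Lingo1, a surface protein that restrains myelination (-0.34 ± 0.07), were lower. Fits of Pdgfa, Fgf2, Lif, Jag1, Notch1, Id2 and Id4 are not given here, so the named genes do not stand for the list.

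Markers that follow the cut of the tissue or other cells were read beside them in the same fit, in which 11.4% of all genes were higher and 9.63% lower. Of 9 neuron markers 2 were higher and 3 lower (Snap25, -0.20 ± 0.04), and their sum was 6547 to 7111 CPM in parental and 5830.04 to 7072 CPM in PS19 mice. Of 6 telencephalic genes 3 were lower (Neurod6, -0.69 ± 0.11), at sums of 474 to 579 and 373 to 647 CPM. Endothelial, pericyte, fibroblast and choroid plexus lists had 2 of 5, 1 of 5, 3 of 5 and 3 of 6 called higher. Hindbrain genes had 1 of 6 higher, with 14 mice at 3 counts or fewer for Gabra6, Hoxa2 and Hoxb3, and thalamic genes none of 3. Schwann cell genes, which share myelin proteins with the central sheath, had 1 of 4 tested lower, with Pmp2 at 0 to 0.109 CPM in any mouse. Pituitary genes had 1 of 3 lower (Prl), which held 3 counts or fewer in 13 mice. Of the 12 genes of the added glucocorticoid list, 11 were higher, at sums of 277 to 421 and 307 to 1238 CPM. Their part in the myelin values was not tested.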

How the data were processed

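Forebrain RNA from 21 mice (6 groups) was analysed. The authors prepared stranded TruSeq poly(A) libraries, sequenced paired ends on a NovaSeq instrument, trimmed with Cutadapt, aligned with HISAT2 to the Ensembl release 101 mouse genome (GRCm38.p5 per the processing notes), and assembled and quantified with StringTie and ballgown. Tool versions and how counts were derived are not given in the sources used here. They deposited a table of read counts per gene and one of FPKM values per gene.

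Counts, as deposited, were tested with edgeR 4.0.16 (quasi-likelihood, TMM, filterByExpr with a minimum count of 10 and total of 15) on the mice of the groups compared, in R 4.3.3. P-values were adjusted by Benjamini-Hochberg over all genes tested, and genes under 0.05 were called. In all, 9 comparisons of 2 groups, 1 fit of tau with APOE line as a term and 3 interaction fits were made. DESeq2 1.42.0, limma 3.58.1 on log2(FPKM + 1), other filters and scalings, and fits without each mouse were alternatives. Scripts were tested on simulated counts first. The exact permutation test of 4 mice against 3 cannot give a p below 0.0286. P-values weigh a difference between groups against the spread between mice of a group, which edgeR estimates partly by sharing information over all genes. Depth (59265459 to 75932183 counts per mouse) limits genes of low counts most.

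No 2 of 27 replicate pairs within groups held identical values, and all differed beyond sampling noise. The members and lists were chosen with earlier results of these data known. Mbp, Mog, Opalin, Myrf, Olig2, Bcas1, Enpp6, Pdgfra, Cspg4 and the 12 called members with the smallest adjusted p are given in every mouse, and up to 3 genes of each further list, by smallest adjusted p over the 3 lines together, are named. The glucocorticoid list, and the fits without the 4 mice that read Ddx3y, were chosen after the data were seen.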

Additional observations from a re-analysis of the deposited data

Results flagged for a closer look

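Of 90 sets of 4 PS19 mice (30 genes in 3 groups), 4 held a mouse whose gap to its nearest neighbour was beyond Dixon's 95% limit for its share of the range, and chance flags about 1 in 20 such sets. Mag was 149.8 CPM in PS/E2H mouse 4 and 225 to 229 CPM in the other 3 mice. Pllp was 37.5 CPM in PS/E4H mouse 3, against 70.0 to 73.6 CPM. Tspan2 was 139.6 CPM in PS/E3H mouse 1, against 159.8 to 162 CPM, and Anln was 82.7 CPM in PS/E3H mouse 3, against 48.7 to 51.3 CPM.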

How the results depend on the processing

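No median over the mature genes changed sign under the alternatives run. Single genes near 0 did: without PS/E2H mouse 4, 7 members changed sign in PS/E2H over E2H and 6 in PS/E2H over PS/E3H, 2 in PS/E4H over PS/E2H, and 3 and 1 in the interactions of APOE2 with APOE3 and of APOE4 with APOE2, none of them called. The number of members called did change. For PS/E3H over E3H, 14 became 8 with no filter on low counts, 8 with the replicate number as a block, 7 in 1 model of all 21 mice and 6 with limma on log2(FPKM + 1). The replicate block also took the calls over all genes from 1141 to 529. The number of members called for PS/E3H over E3H changed further under other limits. It was 0 at a fold of at least 2, and from 2 to 15 without 1 mouse. For PS/E4H over E4H, 15 became 9 with no filter, 9 with the replicate block, 9 with limma on FPKM, 0 at a fold of at least 2, 6 to 19 without 1 mouse and 7 with only the mice without Ddx3y. Calls over all genes fell there too, from 3252 to 1249 with the replicate block and to 1990 without the mice that read Ddx3y. Calls over all genes with no filter, in 1 model of all mice, with limma or without 1 mouse are not given here. For those fits a loss of power over all genes is not set apart from a change in the members. The fit over 3 lines gave 0 at a fold of at least 2, 8 to 15 without 1 mouse and 6 in the 17 mice without Ddx3y. In those 17 mice the calls over all genes went from 4806 to 3622. Where edgeR called no member, DESeq2 called 10 for E2H over E3H (1 model of all mice called 1), 1 for PS/E2H over PS/E3H, 2 for PS/E4H over PS/E3H, 4 for PS/E4H over PS/E2H (1 model called 2) and 1 for the APOE4 minus APOE2 interaction. The causes were not tested. Replicate numbers did not pair the mice throughout: of 27 same-numbered pairs, 4 had deviations correlated above 0.1 (range -0.22 to 0.25), and 8 of 27 matched their own number best. In PS/E2H over E2H, though, mice 1, 2 and 3 each matched their own number best, at correlations of 0.005, 0.25 and 0.17. There the replicate block took the calls over all genes from 155 up to 246. Depth bears most on genes with few counts.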
